A study of Mus musculus with 9 samples.

Results

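The transcription factors studied here direct cell fate in the hair follicle and were followed across 4 cell populations sorted from mouse back skin. They are Gata3, Cux1, Trps1, Prdm1, Ovol1, Runx1, Runx2, Runx3 and Trp63, taken by gene symbol from the deposited gene tables without regard to their values. They make up 9 of 46517 gene rows, each with 1 row, and all 9 passed the filter that removed genes with low counts. None was left out.

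Bulk RNA sequencing gave 9 libraries from back skin of mice at postnatal day 30, when follicles were in anagen VI, late in the growth phase. The inner, suprabasal layer of the hair bulb (suprabasal HB), its outer, basal layer (basal HB) and the outer root sheath (ORS) had 2 libraries each, and hair follicle stem cells (HFSC) had 3. All groups share the label Lhx2-GFP (CD1) as strain, Mixed as sex, and CD34, Sca-1, Pcadherin, integrin α6, integrin b1 and GFP as sorting markers. The extraction text instead names K14-H2BGFP mice, in which the keratin 14 promoter drives a histone-bound GFP, so the source of GFP differs between the labels. No genotype or treatment separates the groups. The labels do not say how many mice gave a sample or whether replicates are separate animals, so p-values measure the spread between these samples, which may be technical.

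The growing hair is built from the bulb, where dividing matrix cells at the base move inward and upward and become the layers of the hair shaft and of the inner root sheath that moulds it. Fate is set by transcription factors that act in overlapping layers. In mice GATA3 and the CUT homeodomain protein CUX1 are needed for an ordered inner root sheath, and TRPS1 is a repressor of the GATA family. PRDM1 (Blimp1) and OVOL1 are zinc finger repressors of transcription, and RUNX proteins bind DNA with the partner CBFB. The protein p63, encoded by Trp63, maintains the basal cells of stratified epithelia.

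Total expected counts, the estimated reads per library, were 45438637 and 50752545 in suprabasal HB, 60990600 to 88596741 in basal HB and ORS, and 25098237 to 29902799 in HFSC, the shallowest libraries. The sorted populations were set against fixed marker lists on CPM, counts scaled to library size. Summed over 12 hair shaft keratins, the level was 2075 and 2200 CPM in suprabasal HB, 192 and 241 CPM in basal HB, 33.0 to 89.9 CPM in ORS and 52.1 to 76.4 CPM in HFSC. Over 12 bulge stem cell genes it was 640 and 995 CPM in suprabasal HB, 1464 and 1793 CPM in basal HB, 6103 and 7330 CPM in ORS and 5947 to 6683 CPM in HFSC. Thus ORS and HFSC overlapped in the sum of the bulge genes, of which Lhx2 averaged 3262 CPM in ORS and 1236 CPM in HFSC. By the test given below, 8 of the 12 bulge genes were lower and 1 higher in ORS over HFSC. Their median log2 change was -0.68, against -0.05 for all genes. Shaft keratins set suprabasal HB apart.

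Upstream sequence is shown for the 3 genes on which the promoter comparison turns, Runx3, Runx2 and Prdm1. Windows of 250 bases before a RefSeq transcription start (GRCm38.p6) were at hand for 6 of the 9 factors, 8 windows in all, and Trps1, Ovol1 and Trp63 had none. They were searched on both strands for TGTGGT, whose reverse complement is ACCACA, the core bound by RUNX proteins. The distal Runx3 start is preceded by chr4:135120395-135120644 and the proximal one by chr4:135152295-135152544, both on the plus strand. The Runx2 window is chr17:44814628-44814877 and the Prdm1 window chr10:44458749-44458998, both on the minus strand. Capitals mark the motif, and all sequences run 5′ to 3′.
Runx3 distal: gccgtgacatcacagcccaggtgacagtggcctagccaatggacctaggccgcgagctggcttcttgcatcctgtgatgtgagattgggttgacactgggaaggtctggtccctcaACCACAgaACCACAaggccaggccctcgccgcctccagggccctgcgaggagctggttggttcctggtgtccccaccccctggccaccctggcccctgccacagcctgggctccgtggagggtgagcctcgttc
Runx3 proximal: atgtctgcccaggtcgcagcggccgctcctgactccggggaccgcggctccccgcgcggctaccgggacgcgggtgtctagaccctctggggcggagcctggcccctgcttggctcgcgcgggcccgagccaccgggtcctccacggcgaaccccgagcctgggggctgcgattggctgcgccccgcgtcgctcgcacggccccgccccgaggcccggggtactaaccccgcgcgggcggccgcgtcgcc
Runx2: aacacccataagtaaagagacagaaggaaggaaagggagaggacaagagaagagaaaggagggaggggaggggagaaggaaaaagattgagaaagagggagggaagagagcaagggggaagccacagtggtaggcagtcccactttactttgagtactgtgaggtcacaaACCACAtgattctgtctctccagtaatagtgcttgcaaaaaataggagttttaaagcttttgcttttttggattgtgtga
Prdm1: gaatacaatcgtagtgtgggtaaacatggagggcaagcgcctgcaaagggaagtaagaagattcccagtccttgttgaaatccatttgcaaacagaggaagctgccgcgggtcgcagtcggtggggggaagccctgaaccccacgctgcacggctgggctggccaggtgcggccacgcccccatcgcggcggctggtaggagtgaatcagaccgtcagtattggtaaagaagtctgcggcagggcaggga
The distal Runx3 window holds 2 copies, beginning 134 and 126 bases before the start, and the Runx2 window holds 1, beginning 80 bases before it. By the GENCODE gene spans given below, the Runx2 copy lies inside the gene, as do the whole Prdm1 and proximal Runx3 windows. The proximal Runx3 window, both Runx1 windows and those of Gata3, Cux1 and Prdm1 hold none. Among 32851 promoter windows of the same length, 14.0% held the motif and 1.27% held at least 2 copies. A match describes letters and not binding, and the gene-level tables do not tell which start was used.

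Levels are given as CPM normalised for library composition, and fold changes come from 1 edgeR fit of all 9 libraries. Of the 9 factors, 8 differed among the 4 populations, and 65.6% of all 20491 genes tested did. The exception in this fit was Runx1 (adjusted p = 0.101), which passed under some other settings given below. Trps1, Ovol1 and Runx3 had their highest mean in suprabasal HB, Prdm1, Runx1 and Runx2 in basal HB, Gata3 and Cux1 in ORS, and Trp63 in HFSC. By comparison 25.0% of tested genes were highest in suprabasal HB, 20.8% in basal HB, 20.3% in ORS and 33.9% in HFSC. In bulk samples fewer cells of a type and less RNA per cell cannot be told apart, here and below.

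**Figure D1:**
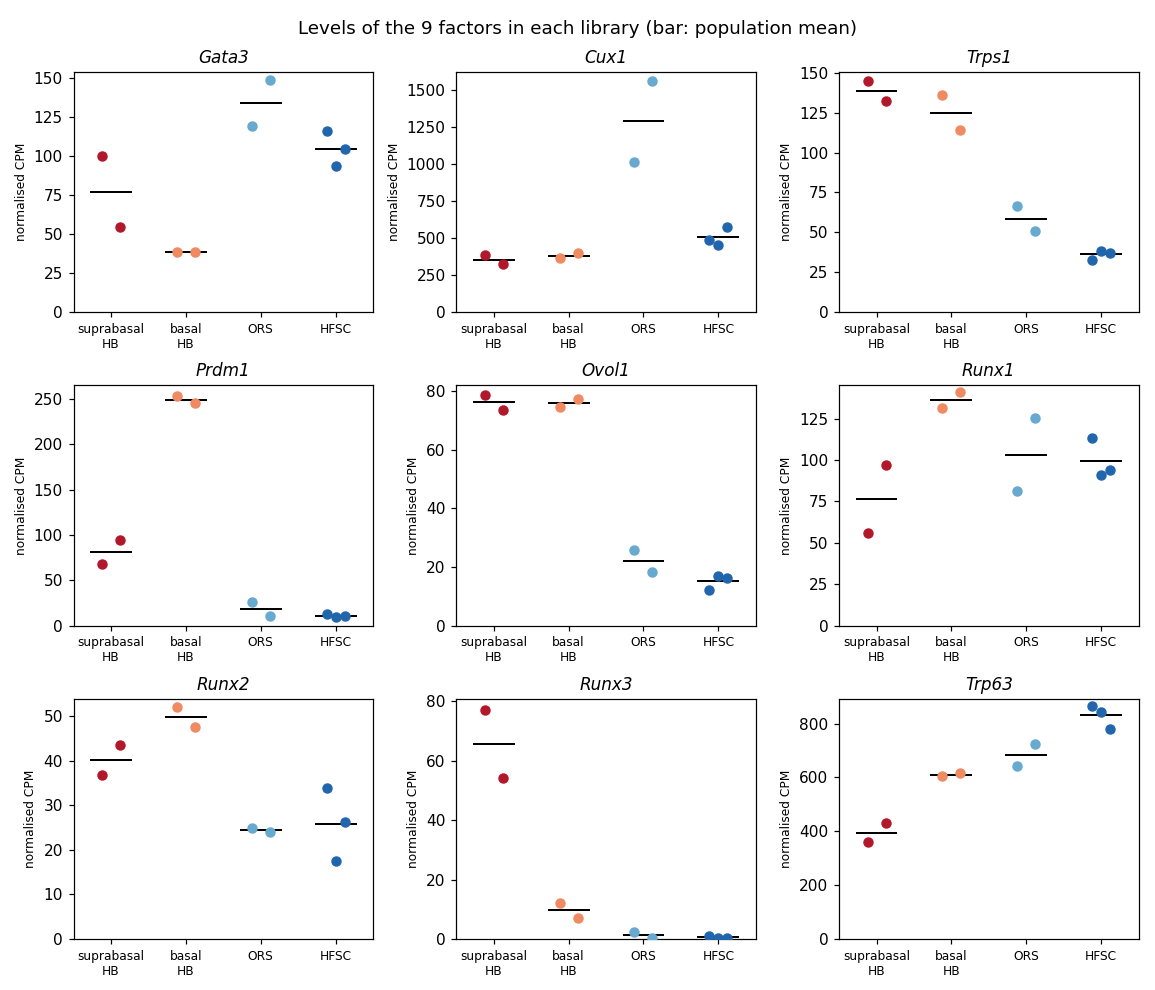
Normalised CPM of each factor (vertical axes, linear, from 0) in each library, with points as libraries and bars as population means; the populations run from suprabasal HB to HFSC. Trps1, Ovol1 and Prdm1 are high in both bulb populations, Cux1 peaks in ORS at 1018 and 1564 CPM, and Runx3 exceeds 50 CPM in suprabasal HB alone.

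Suprabasal HB over basal HB asks what differs between the inner and the outer layer of the bulb. Gata3 and Runx3 were higher and Prdm1, Runx1 and Trp63 lower, so 5 of 9 factors passed an adjusted p of 0.05, as did 27.9% of all genes (13.1% higher, 14.8% lower). Leaving out 1 library lowered that count to 2 without suprabasal HB replicate 1 or basal HB replicate 2, and to 3 without basal HB replicate 1. Against ORS, suprabasal HB had 4 factors higher (Trps1, Prdm1, Ovol1 and Runx3) and 3 lower (Gata3, Cux1 and Trp63), 7 of 9 beside 29.4% of all genes (14.3% higher, 15.1% lower). Against HFSC it had 5 higher (Trps1, Prdm1, Ovol1, Runx2 and Runx3) and 2 lower (Cux1 and Trp63), beside 51.5% of all genes (25.2% higher, 26.3% lower).

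Basal HB over ORS had 5 factors higher (Trps1, Prdm1, Ovol1, Runx2 and Runx3) and 2 lower (Gata3 and Cux1), beside 30.5% of all genes (15.8% higher, 14.7% lower). Against HFSC the same 5 were higher in basal HB and Gata3 and Trp63 lower, beside 48.9% of all genes (22.8% higher, 26.1% lower). ORS over HFSC had Cux1, Trps1 and Ovol1 higher and none lower, 3 of 9 beside 41.9% of all genes (18.1% higher, 23.8% lower). Without ORS replicate 2 that last count was 5. The comparisons share libraries, so their counts are not independent of one another.

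**Figure D2:**
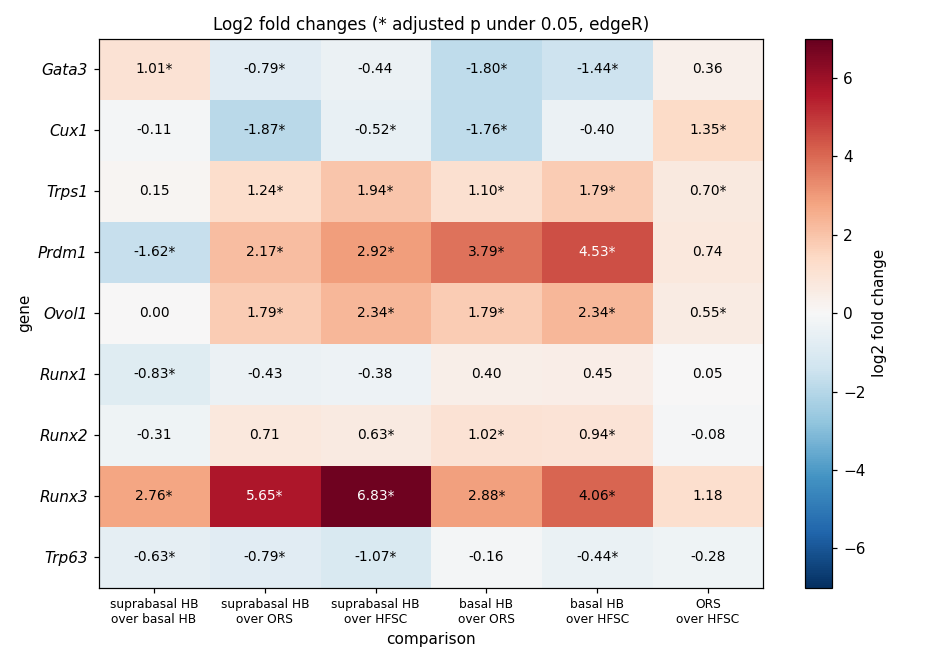
Log2 fold change (colour scale, printed in each cell) of the 9 factors (rows) in the 6 comparisons (columns, the population named first over the second), with an asterisk where edgeR's adjusted p was under 0.05. Trps1, Prdm1, Ovol1 and Runx3 are raised in each bulb population over ORS and over HFSC.

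Trp63 (ENSMUSG00000022510, mm10 chromosome 16, 25683763 to 25892102, plus strand) was lowest in suprabasal HB. It stood at 361 and 429 CPM in suprabasal HB, 604 and 618 CPM in basal HB, 643 and 724 CPM in ORS, and 867, 844 and 782 CPM in HFSC. No population overlapped another, and the level increased in that order. The change was -0.63 (log2, SE 0.13, adjusted p = 0.0066) for suprabasal over basal HB, -0.79 (SE 0.13, adjusted p = 0.00163) over ORS and -1.07 (SE 0.12, adjusted p = 9.14e-05) over HFSC. Basal HB over ORS gave -0.16 (adjusted p = 0.392) and ORS over HFSC -0.28 (adjusted p = 0.0788), neither past the threshold in this fit. Basal HB over HFSC passed at -0.44 (adjusted p = 0.0119), but not without basal HB replicate 1 or 2 or HFSC replicate 1 or 2 (adjusted p 0.0627 to 0.0928).

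Per length, Trp63 was among the most abundant factors, with 144 ± 3.71 TPM (transcript level scaled for length and library) in suprabasal HB, 266 ± 16.9 TPM in basal HB, 285 ± 25.4 TPM in ORS (SD, n = 2 each) and 271 ± 20.5 TPM in HFSC (SD, n = 3). On this scale basal HB, ORS and HFSC stood close together, and the change of basal HB over HFSC was -0.02 (log2 TPM with a pseudocount of 1, limma adjusted p = 0.833). ORS over HFSC passed with DESeq2 on counts (-0.26, adjusted p = 0.033) and was 0.07 on log2 TPM (limma adjusted p = 0.57). On log2 TPM with a pseudocount of 1 the median of all genes was 0.21 in basal HB over HFSC and 0.13 in ORS over HFSC. Trp63 lay below that median in both comparisons. Suprabasal HB stayed lowest on both scales. The tables sum all transcripts of the gene, so the TA and ΔN forms of p63 were not separated.

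Of 24 known p63 target genes, 2 were higher, 9 lower and 13 not past the test in suprabasal over basal HB (median log2 change -0.36, against 0.00 for all genes). Over HFSC the counts were 3 higher and 14 lower of 24 in suprabasal HB (median -0.43, all genes 0.02), and again 3 and 14 in basal HB (median -0.45, all genes 0.00). ORS over HFSC had 2 higher and 17 lower (median -0.64, all genes -0.05). The keratins of basal cells Krt14 and Krt5, a dimer that forms their filaments, were lower in suprabasal HB than in basal HB by 0.97 and 0.75 in log2 (adjusted p = 0.00737 and 0.00976). The hemidesmosome integrin Itgb4 was lower by 1.91 (adjusted p = 0.00064). Perp, a desmosomal target of p63, was higher by 0.45 (adjusted p = 0.0402).

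Of the tested p53 and OVOL relatives, Ovol2 and Trp73 were both lower in suprabasal HB than in ORS and HFSC, and Trp53 passed in no comparison. Ovol2 averaged 1.63 CPM in suprabasal HB, 2.53 CPM in basal HB, 5.72 CPM in ORS and 4.54 CPM in HFSC. Trp73, which encodes p73, averaged 6.77 CPM in suprabasal HB, 14.6 CPM in basal HB, 23.1 CPM in ORS and 15.7 CPM in HFSC. It was lower in suprabasal HB than in each of the others, by 1.11 against basal HB (log2, adjusted p = 0.0463), 1.78 against ORS (adjusted p = 0.00576) and 1.22 against HFSC (adjusted p = 0.0144). In suprabasal over basal HB it alone of the 3 passed (median log2 change of the 3 -0.63, all genes 0.00).

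Gata3 (ENSMUSG00000015619, mm10 chromosome 2, 9857078 to 9890034, minus strand), a determinant of the inner root sheath, was lowest in basal HB. It stood at 99.7 and 54.8 CPM in suprabasal HB, 38.4 and 38.5 CPM in basal HB, 119 and 148 CPM in ORS, and 116, 93.6 and 105 CPM in HFSC. Basal HB lay below every other library, and the 2 suprabasal libraries differed widely, the first reaching into the HFSC range. Basal HB was 3.48-fold lower than ORS (log2 -1.80, SE 0.25, adjusted p = 0.00094) and 2.72-fold lower than HFSC (log2 -1.44, SE 0.23, adjusted p = 0.00104).

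Suprabasal HB exceeded basal HB in Gata3 by 2.01-fold (log2 1.01, SE 0.25, adjusted p = 0.016). Without suprabasal HB replicate 1 the difference was 0.51 (adjusted p = 0.0589), and it missed the threshold also without basal HB replicate 1 (adjusted p = 0.0952) or 2 (adjusted p = 0.083) and on log2 TPM (0.58, adjusted p = 0.229). Suprabasal HB was lower than ORS by 0.79 in log2 (SE 0.24, adjusted p = 0.038). That call was lost without suprabasal HB replicate 2, ORS replicate 2, either basal HB library or any HFSC library (adjusted p 0.054 to 0.184), and without all 3 HFSC libraries (adjusted p = 0.0781) or from the 2 populations alone (adjusted p = 0.128). Against HFSC the difference of -0.44 did not pass (adjusted p = 0.134). It was -0.93 and passed without suprabasal HB replicate 1 (adjusted p = 0.00272) and was 0.04 without suprabasal HB replicate 2.

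Inner root sheath genes differed between the same 2 suprabasal libraries. Summed over 11 structural genes of this sheath, the level was 3779 CPM in suprabasal HB replicate 1 and 2668 CPM in replicate 2, and 9 of 11 were higher in replicate 1, as were 14 of 15 dermal genes. The sheath sum was 6369 and 6463 CPM in basal HB, where Gata3 was lowest, 1616 and 997 CPM in ORS, and 741 to 1094 CPM in HFSC. Tchh and Padi3 carried most of the basal HB sum, averaging 4371 and 1219 CPM there, so the sum does not stand for most of the list. In ORS 10 of 11 sheath genes were higher in replicate 1, where Gata3 was lower than in replicate 2. In suprabasal over basal HB, 7 of the 11 were higher and 3 lower (median log2 change 1.38, all genes 0.00). Krt71 and Krt73, keratins of the inner root sheath, were 6.56-fold and 8.28-fold higher (adjusted p = 0.0052 and 0.00907). The 3 lower genes were Tchh (trichohyalin, log2 -2.68), Tgm3 (a transglutaminase, -1.48) and Padi3 (a peptidylarginine deiminase, -1.97), which act on or form the hardened matrix of the sheath. Their part in the Gata3 difference was not tested.

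Trps1 (ENSMUSG00000038679, mm10 chromosome 15, 50654752 to 50890463, minus strand) showed another pattern within the GATA family. It stood at 145 and 132 CPM in suprabasal HB, 136 and 114 CPM in basal HB, 66.3 and 50.9 CPM in ORS, and 32.7, 38.4 and 37.3 CPM in HFSC. The bulb populations overlapped each other and lay above ORS, which lay above HFSC. Suprabasal HB was 2.37-fold above ORS (log2 1.24, SE 0.15, adjusted p = 0.000341) and 3.84-fold above HFSC (log2 1.94, SE 0.13, adjusted p = 6.71e-06). Basal HB was 2.14-fold above ORS (adjusted p = 0.000852) and 3.46-fold above HFSC (adjusted p = 1.84e-05). ORS exceeded HFSC by 1.62-fold (adjusted p = 0.00352). Within the bulb the difference of 0.15 did not pass (adjusted p = 0.499), and it was -0.14 on log2 TPM.

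The TPM ratio of Gata3 to Trps1, which sets the activator beside the repressor per length, was 2.09 and 1.23 in suprabasal HB, 0.848 and 1.08 in basal HB, 5.64 and 8.99 in ORS, and 12.5, 7.45 and 9.42 in HFSC. The ratio was lowest in basal HB and did not overlap between either bulb population and ORS or HFSC. It was computed from levels already compared and is given as a description.

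Of 10 other GATA factors and their partners, 7 were tested. Suprabasal over basal HB had none higher and 4 lower (median log2 change -0.38, all genes 0.00), and basal HB over ORS had 3 higher and 1 lower (median 0.22, all genes -0.04). Zfpm1 (FOG1), a cofactor of GATA proteins, averaged 9.30 CPM in suprabasal HB, 9.28 CPM in basal HB, 24.3 CPM in ORS and 16.3 CPM in HFSC. It was lower than ORS in suprabasal HB (log2 -1.38, adjusted p = 0.00364) and in basal HB (log2 -1.39, adjusted p = 0.00354). Zfpm2 (FOG2) was a scarce transcript at 1.71 CPM in basal HB against 0.105 CPM in ORS (log2 4.06, adjusted p = 0.00403).

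Cux1 (ENSMUSG00000029705, mm10 chromosome 5, 136248135 to 136567490, minus strand) was the factor with the largest difference between ORS and HFSC among those that passed. It stood at 383 and 322 CPM in suprabasal HB, 364 and 400 CPM in basal HB, 1018 and 1564 CPM in ORS, and 485, 455 and 577 CPM in HFSC. Both ORS libraries lay above all others, and the bulb populations overlapped each other below HFSC. ORS was 2.55-fold above HFSC (log2 1.35, SE 0.19, adjusted p = 0.000654). Suprabasal HB was 3.66-fold below ORS (log2 -1.87, SE 0.21, adjusted p = 0.000262) and basal HB 3.38-fold below ORS (log2 -1.76, SE 0.21, adjusted p = 0.000511).

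Suprabasal HB was also below HFSC in Cux1 by 0.52 in log2 (adjusted p = 0.048). Leaving out any library of suprabasal HB, basal HB or HFSC ended that call (adjusted p 0.0707 to 0.361), as did DESeq2 size factors (adjusted p = 0.0503), upper-quartile scaling (adjusted p = 0.0769) and no filter on low counts (adjusted p = 0.0657). Basal HB over HFSC gave -0.40 (adjusted p = 0.11) and passed without ORS replicate 1 or 2 (adjusted p = 0.0424 and 0.041). At 508 ± 144 TPM in ORS (SD, n = 2) Cux1 stood at the 98.7th percentile of the genes tested there. The row sums 14 transcripts of 805 to 12862 bases, and the locus also encodes CASP, a Golgi protein that lacks the homeodomain, so a gene-level value does not give the homeodomain factor alone.

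Of the related CUT and SATB homeobox genes, Satb1, a chromatin organiser, averaged 2.78 CPM in suprabasal HB, 3.77 CPM in basal HB and 3.73 CPM in ORS, against 9.63 CPM in HFSC, and was lower than HFSC in each (adjusted p = 0.000485, 0.00223 and 0.00277). The paralogue Cux2 was scarce, at 1.19 CPM in suprabasal HB against 2.32 CPM in basal HB (adjusted p = 0.0377).

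Prdm1 (ENSMUSG00000038151, mm10 chromosome 10, 44437177 to 44528501, minus strand) peaked in basal HB. It stood at 68.3 and 93.9 CPM in suprabasal HB, 253 and 245 CPM in basal HB, 25.7 and 10.4 CPM in ORS, and 12.3, 9.75 and 10.1 CPM in HFSC. Basal HB lay above all other libraries, suprabasal HB came next, and ORS overlapped HFSC. Basal HB was 13.8-fold above ORS (log2 3.79, SE 0.38, adjusted p = 0.000226) and 23.2-fold above HFSC (log2 4.53, SE 0.34, adjusted p = 1.8e-05). Suprabasal HB was 4.51-fold above ORS (adjusted p = 0.00191) and 7.55-fold above HFSC (adjusted p = 9.74e-05).

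Within the bulb Prdm1 was 3.07-fold lower in suprabasal HB (log2 -1.62, SE 0.35, adjusted p = 0.0091). Without suprabasal HB replicate 1 the change was -1.40 (adjusted p = 0.0557). ORS over HFSC gave 0.74 (adjusted p = 0.0949). With DESeq2 (0.77, adjusted p = 0.0353) and with no filter on low counts (0.84, adjusted p = 0.0269) it passed. On log2 TPM it passed with a pseudocount of 0.1 (0.96, limma adjusted p = 0.0458) but not of 1. This difference was -0.04 without ORS replicate 1 and 1.26 without ORS replicate 2, where it passed (adjusted p = 0.00174).

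Prdm1 is also known from the dermal papilla, the mesenchyme enclosed by the bulb, so dermal markers are given beside it. Summed over 15 dermal fibroblast and papilla genes, the level was 4108 and 1659 CPM in suprabasal HB, 2481 and 1954 CPM in basal HB, 1642 and 917 CPM in ORS, and 1481 to 2648 CPM in HFSC. In basal HB over ORS 9 of the 15 were higher and 1 lower (median log2 change 2.41, all genes -0.04), and in suprabasal over basal HB 2 were higher and 7 lower (median -1.24, all genes 0.00). Corin, a protease of the papilla, averaged 8.68 CPM in suprabasal HB, 89.5 CPM in basal HB, 4.88 CPM in ORS and 15.4 CPM in HFSC. Pdgfrb, a receptor of mesenchymal cells, averaged 6.59 CPM in suprabasal HB, 100.1 CPM in basal HB, 8.46 CPM in ORS and 14.8 CPM in HFSC. Not all of the 15 peaked in basal HB. Col1a1 averaged 826 CPM in suprabasal HB and 370 CPM in basal HB, and Dcn 421 CPM and 145 CPM. Alpl averaged 1.86 CPM in suprabasal HB, 13.8 CPM in basal HB, 21.3 CPM in ORS and 41.0 CPM in HFSC. None of the 15 averaged 0 in any population. Replicate 1 exceeded replicate 2 in 14 of 15 dermal genes in suprabasal HB, where Prdm1 was lower in replicate 1, and in 12 of 15 in basal HB and 14 of 15 in ORS, where Prdm1 was higher in replicate 1. The part of mesenchymal RNA in the Prdm1 result was not tested.

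PRDM1 also marks cells of the sebaceous gland in mouse skin. Summed over 12 sebaceous markers, the level was 1050 and 895 CPM in suprabasal HB, 903 and 806 CPM in basal HB, 721 and 702 CPM in ORS, and 394 to 435 CPM in HFSC. In basal HB over ORS 6 of 11 tested were higher and 1 lower (median log2 change 1.44, all genes -0.04). Scd1, Fasn and Mgst1, enzymes that many cells use, carried most of the sum. Mc5r, a melanocortin receptor of the gland, averaged 0.343 CPM in suprabasal HB, 3.21 CPM in basal HB, 0.113 CPM in ORS and 0.138 CPM in HFSC, and was higher in basal HB than in ORS (log2 4.77, adjusted p = 0.00287). Cidea, a lipid droplet protein, averaged under 0.1 CPM in suprabasal HB, 0.314 CPM in basal HB, 0.0289 CPM in ORS and 0.265 CPM in HFSC, and was likewise higher in basal HB than in ORS (log2 3.35, adjusted p = 0.0104). Awat1, a wax ester synthase of the gland, averaged under 0.1 CPM in all 4 populations. The part of gland RNA in the Prdm1 result was not tested.

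Among 14 other PRDM genes 10 were tested, and 1 was higher and 3 lower in suprabasal over basal HB (median log2 change -0.15, all genes 0.00). Prdm16, a regulator of brown fat and stem cells, shared the basal peak of Prdm1 at a far lower level. It averaged 0.231 CPM in suprabasal HB, 5.35 CPM in basal HB, 0.225 CPM in ORS and 0.0416 CPM in HFSC, and was higher in basal HB than in ORS (log2 4.61, adjusted p = 0.00129) and HFSC (log2 7.02, adjusted p = 0.000156). Mecom, its paralogue, was highest in suprabasal HB at 3.76 CPM against 0.697 CPM in basal HB (log2 2.43, adjusted p = 0.00148). Prdm8 ran the other way, at 0.538 CPM in suprabasal HB against 12.6 CPM in ORS (log2 -4.58, adjusted p = 0.000277).

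Ovol1 (ENSMUSG00000024922, mm10 chromosome 19, 5549136 to 5560646, minus strand), which promotes exit from the cell cycle in epidermal progenitors, was level across the bulb. It stood at 78.7 and 73.7 CPM in suprabasal HB, 74.6 and 77.4 CPM in basal HB, 25.9 and 18.2 CPM in ORS, and 12.3, 16.8 and 16.1 CPM in HFSC. The bulb libraries overlapped within a span of about 5 CPM, well above all sheath and stem cell libraries. The suprabasal over basal difference was 0.00 (SE 0.18, adjusted p = 0.995), and 13 of 19 alternative settings gave it the other sign, down to -0.26.

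Ovol1 was 3.46-fold above ORS in suprabasal HB (log2 1.79, SE 0.18, adjusted p = 0.000144) and 3.45-fold in basal HB (log2 1.79, SE 0.18, adjusted p = 0.000258). Over HFSC it was 5.07-fold higher in suprabasal HB (adjusted p = 7.49e-06) and 5.05-fold in basal HB (adjusted p = 1.49e-05). ORS exceeded HFSC by 0.55 in log2 (SE 0.17, adjusted p = 0.0272). That call was lost without ORS replicate 1 (0.28, adjusted p = 0.218). Its paralogue Ovol2, a guard of epithelial identity, ran against it, at 1.63 CPM in suprabasal HB, 2.53 CPM in basal HB, 5.72 CPM in ORS and 4.54 CPM in HFSC, and was lower in basal HB than in ORS (log2 -1.18, adjusted p = 0.0117).

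Runx1 (ENSMUSG00000022952, mm10 chromosome 16, 92601466 to 92826149, minus strand), which in mice promotes the activation of follicle stem cells, did not pass the test across the 4 populations. It stood at 56.1 and 96.8 CPM in suprabasal HB, 131 and 141 CPM in basal HB, 81.0 and 125 CPM in ORS, and 113, 90.9 and 94.1 CPM in HFSC. Basal HB lay above all other libraries, and the other 3 populations overlapped one another. Suprabasal HB was 1.78-fold below basal HB (log2 -0.83, SE 0.27, adjusted p = 0.0478), which missed the threshold without suprabasal HB replicate 1 (-0.49, adjusted p = 0.208), basal HB replicate 1 or 2 (adjusted p = 0.137 and 0.166) or HFSC replicate 2 or 3 (adjusted p = 0.0506 and 0.0588), without all 3 HFSC libraries (adjusted p = 0.0842) and from the 2 populations alone (adjusted p = 0.0506). Basal HB over ORS gave 0.40 (SE 0.27, adjusted p = 0.315), and basal HB over HFSC 0.45 (SE 0.24, adjusted p = 0.152). The latter passed with no filter on low counts (0.55, adjusted p = 0.0457) and from the 2 populations alone (0.50, adjusted p = 0.0068). On log2 TPM with a pseudocount of 1 it was 0.75 (limma adjusted p = 0.0300). Across the 4 populations Runx1 passed with no filter, with DESeq2 and on log2 TPM, where all 9 factors differed.

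Runx2 (ENSMUSG00000039153, mm10 chromosome 17, 44495987 to 44814797, minus strand), best known as the master factor of bone, was higher in the bulb. It stood at 36.7 and 43.4 CPM in suprabasal HB, 52.1 and 47.4 CPM in basal HB, 25.0 and 23.9 CPM in ORS, and 33.8, 17.4 and 26.3 CPM in HFSC. Both bulb populations lay above all ORS and HFSC libraries. Basal HB was 2.03-fold above ORS (log2 1.02, SE 0.24, adjusted p = 0.0121) and 1.92-fold above HFSC (log2 0.94, SE 0.22, adjusted p = 0.0071). The first call was lost without basal HB replicate 1 (adjusted p = 0.0745) or ORS replicate 2 (adjusted p = 0.0609), and the second without basal HB replicate 1 (adjusted p = 0.0519).

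Suprabasal HB over HFSC passed for Runx2 at 0.63 (adjusted p = 0.0401), but not without either suprabasal or either basal library or HFSC replicate 3 (adjusted p 0.0524 to 0.118), nor from the 2 populations alone (adjusted p = 0.0670) or on log2 TPM (0.46, adjusted p = 0.177). Suprabasal HB over ORS, at 0.71, did not pass (adjusted p = 0.0566). It did without HFSC replicate 1 or 2 (adjusted p = 0.022 and 0.00655) and without all 3 HFSC libraries (adjusted p = 0.00536). It also passed with no filter on low counts (adjusted p = 0.0258), with DESeq2 (adjusted p = 0.0250) and from the 2 populations alone (adjusted p = 0.0169). The antisense gene Runx2os1, which shares exonic bases with Runx2, reached at most 1.08 CPM. The counting strand is not given in the sources used here, so reads of the pair cannot be told apart.

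Runx3 (ENSMUSG00000070691, mm10 chromosome 4, 135120652 to 135177990, plus strand), known for roles in T lymphocytes and sensory neurons, had the widest range of the 9 factors. It stood at 77.0 and 54.3 CPM in suprabasal HB, 12.3 and 7.08 CPM in basal HB, 2.24 and 0.436 CPM in ORS, and 0.907, 0.354 and 0.436 CPM in HFSC. Suprabasal HB lay far above basal HB, which lay above ORS and HFSC, and these last populations overlapped. The HFSC values rest on 25.2, 8.37 and 11.6 expected counts, against 4086 and 2428 in suprabasal HB.

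Suprabasal HB exceeded basal HB in Runx3 by 6.79-fold (log2 2.76, SE 0.59, adjusted p = 0.00909), ORS by 50.2-fold (log2 5.65, SE 0.69, adjusted p = 0.000377) and HFSC by 114-fold (log2 6.83, SE 0.66, adjusted p = 4.33e-05). Basal HB was 7.38-fold above ORS (adjusted p = 0.00812) and 16.7-fold above HFSC (adjusted p = 0.000991). Without basal HB replicate 2 the suprabasal over basal difference was 2.42 (adjusted p = 0.0772), and without basal HB replicate 1 that of basal HB over ORS was 2.43 (adjusted p = 0.0554). ORS over HFSC gave 1.18 (adjusted p = 0.218). It was 1.96 and passed without ORS replicate 2 (adjusted p = 0.0151), and was -0.40 without ORS replicate 1.

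Pigment cell genes moved with Runx3. Summed over 10 melanocyte markers, the level was 16664 and 15977 CPM in suprabasal HB, 1573 and 985 CPM in basal HB, 359 and 78.7 CPM in ORS, and 84.7, 142 and 97.6 CPM in HFSC. All 10 were higher in suprabasal HB than in each other population and in basal HB than in HFSC, 9 of 10 in basal HB over ORS, and 1 in ORS over HFSC. The medians of the list were 3.72 in suprabasal over basal HB (log2, all genes 0.00) and 6.53 over ORS (all genes -0.01). None of the 10 averaged 0 in any population. All 10 were higher in replicate 1 than in replicate 2 of basal HB and of ORS, but 5 of 10 in suprabasal HB, while Runx3 was higher in replicate 1 of all 3 populations.

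Sox10, a lineage factor of melanocytes, stood at 155 and 123 CPM in suprabasal HB, 19.0 and 13.8 CPM in basal HB, 3.17 and 0.525 CPM in ORS, and 1.16, 0.576 and 1.20 CPM in HFSC. The ratio of Runx3 to Sox10 counts was 0.498 and 0.443 in suprabasal HB, 0.646 and 0.512 in basal HB, 0.705 and 0.834 in ORS, and 0.789, 0.644 and 0.350 in HFSC. The ratio stayed between 0.350 and 0.834 over libraries in which Runx3 itself ran from 0.354 to 77.0 CPM. Sox10 was the gene nearest to Runx3 in profile among genes averaging at least 10 CPM. A steady ratio follows from that likeness, so it is a description and no separate test of a pigment cell link. Against the summed counts of the whole melanocyte list, Runx3 was 4.83 and 3.35 per mille in suprabasal HB and 8.77 and 7.60 in basal HB. It was 6.54 and 5.62 per mille in ORS, and 9.97, 2.35 and 3.98 in HFSC. Summed over 15 immune cell markers, the level was 65.7 and 80.5 CPM in suprabasal HB, 163 and 178 CPM in basal HB, 126 and 104 CPM in ORS, and 187 to 238 CPM in HFSC. Thy1 carried most of the HFSC sum, at an average of 150 CPM there. It averaged 13.4 CPM in suprabasal HB, 48.2 CPM in basal HB and 56.0 CPM in ORS. Cd74, the next largest in HFSC, averaged 27.7 CPM there and 53.6 CPM in basal HB. Of 11 immune markers tested, none was higher and 3 were lower in suprabasal over basal HB (median log2 change -0.71, all genes 0.00). Among genes of T cells Cd3e averaged 0 CPM in suprabasal HB and at most 0.0916 CPM elsewhere, and Cd3d 0.203 CPM in suprabasal HB, 0.375 CPM in basal HB, 0.345 CPM in ORS and 0.270 CPM in HFSC. Ptprc, which marks leukocytes, averaged 3.43 CPM in suprabasal HB and 2.34 to 6.08 CPM in the other populations. The part of pigment or immune cells in the Runx3 result was not tested.

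**Figure D3:**
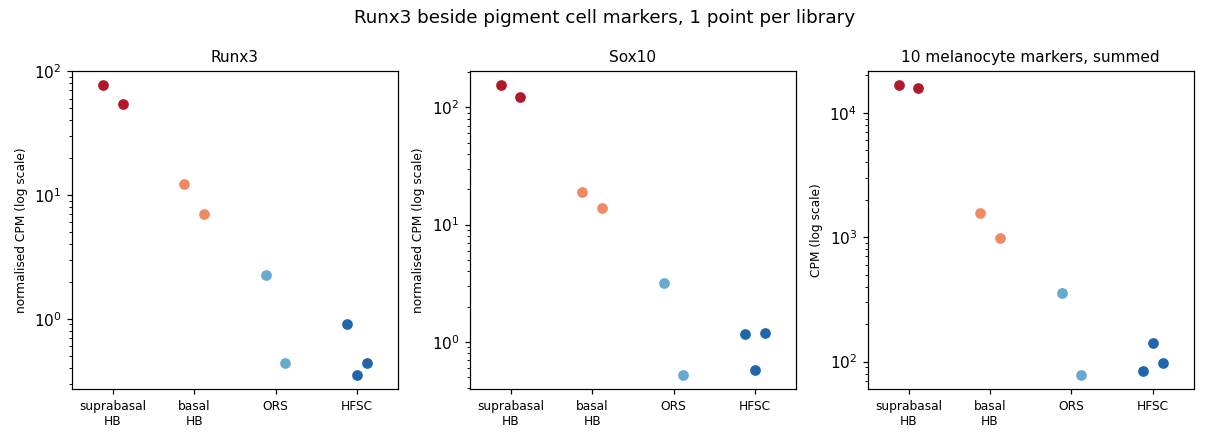
Normalised CPM of Runx3 and of Sox10 and summed CPM of 10 melanocyte markers (vertical axes, log scale), 1 point per library, populations from suprabasal HB to HFSC. In all panels suprabasal HB lies highest and basal HB next, and ORS replicate 1 lies above ORS replicate 2.

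Set per length, the RUNX genes changed places. Their summed TPM was 74.6 and 66.5 in suprabasal HB, 81.3 and 72.3 in basal HB, 37.4 and 54.6 in ORS, and 48.8, 31.7 and 38.9 in HFSC. Runx3 made up 59.1% and 39.6% of that sum in suprabasal HB, 9.22% and 5.92% in basal HB, 3.13% and 0.439% in ORS, and 0.738%, 0.567% and 0.411% in HFSC. Runx1 made up 26.7% and 44.4% in suprabasal HB, 67.4% and 71.8% in basal HB, 77.2% and 85.2% in ORS, and 78.8%, 84.5% and 77.4% in HFSC. The suprabasal libraries differed in which of the pair was larger, with Runx3 ahead in replicate 1 and Runx1 in replicate 2, and Runx1 led in the other 7 libraries.

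**Figure D4:**
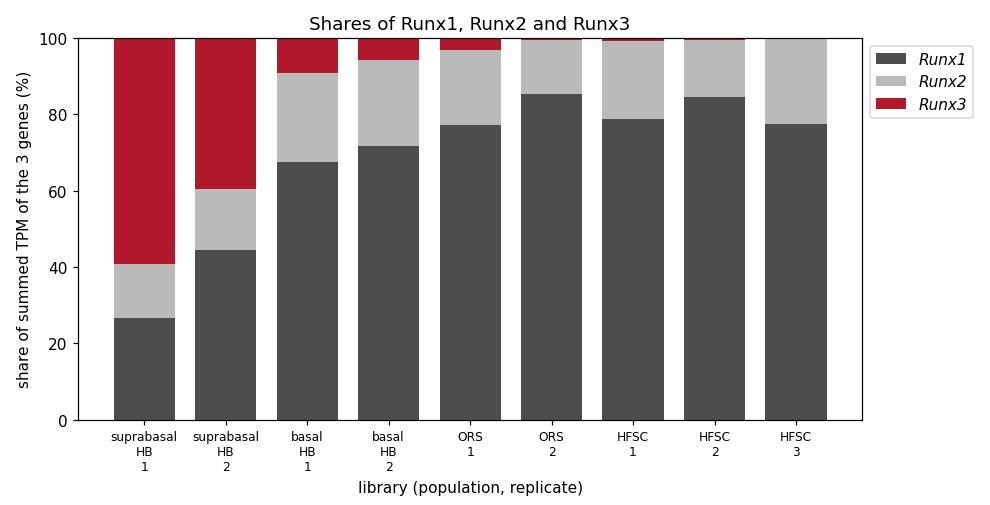
Share (%) of Runx1, Runx2 and Runx3 in their summed TPM, 1 stacked bar per library, from suprabasal HB to HFSC. The Runx3 part is 59.1% and 39.6% in suprabasal HB and under 10% in the other 7 libraries.

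RUNX proteins act with CBFB and with co-repressors of the TLE and CBFA2T families. Cbfb varied little, at 145 and 167 CPM in suprabasal HB, 160 and 171 CPM in basal HB, 170 and 178 CPM in ORS, and 160, 183 and 138 CPM in HFSC. Of 10 such partners 1 was higher and 4 lower in suprabasal over basal HB (median log2 change -0.44, all genes 0.00), and 5 were higher and 1 lower in basal HB over ORS (median 0.32, all genes -0.04). Tle2, a Groucho co-repressor, was lowest in suprabasal HB, at 2.44 CPM against 12.7 CPM in basal HB (log2 -2.38, adjusted p = 0.00163) and 26.0 CPM in HFSC (log2 -3.41, adjusted p = 6.36e-05). Runx1t1, a corepressor of the ETO family, stood at 3.91 CPM in basal HB against 0.503 CPM in ORS (log2 2.97, adjusted p = 0.00988).

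The 18 other transcription factors of the hair matrix give a yardstick for the 9. In suprabasal over basal HB 3 were higher and 7 lower (median log2 change -0.20, all genes 0.00), and in basal HB over HFSC 9 were higher and 5 lower (median 1.32, all genes 0.00). In suprabasal HB over HFSC 12 were higher and 3 lower (median 1.32, all genes 0.02). Lef1, the nuclear partner of β-catenin, was higher in suprabasal HB than in HFSC by 3.63 in log2 (adjusted p = 4.6e-06), and Hoxc13, a regulator of hair keratins, by 1.15 (adjusted p = 9.37e-05). Foxn1, the nude gene, which promotes differentiation, was higher in suprabasal than in basal HB by 1.87 (adjusted p = 0.000445). Prdm1 and Runx1 were lower in that comparison, as were 7 of the 18.

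For each factor the genes with the most similar profile were ranked by the root mean square difference of centred log2 CPM over the 9 libraries, among genes averaging at least 10 CPM. The smallest distance was that of Trp63 to Rxra, a retinoid receptor, at 0.0832, followed by Zhx3 at 0.0881. Ovol1 was nearest to the claudin Cldn8 at 0.116, Trps1 to Kremen1, a receptor of DKK proteins, at 0.133, and Cux1 to the homeobox gene Dlx1 at 0.138. Runx1 was nearest to Pawr at 0.143, Gata3 to Frmd4a at 0.147, and Runx2 to Bahd1 at 0.207. Prdm1 lay nearest to Hs3st1, a heparan sulphate sulphotransferase, at 0.203 and to the ligand Bmp2 at 0.233. The largest distance to a nearest gene was that of Runx3, to Sox10, at 0.365. This measure is not scaled to a gene's range over the populations, which was 6.86 in log2 for Runx3 and 1.07 for Trp63. The distances of different factors therefore do not rank how alike the profiles are. Between the factors themselves the smallest distance was that of Trps1 and Ovol1 at 0.296, and next came Runx1 and Trp63 at 0.396.

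These neighbours show the same profiles at other levels. Dlx1 averaged 22.2 ± 4.42 CPM in suprabasal HB, 21.8 ± 2.03 CPM in basal HB, 70.9 ± 8.03 CPM in ORS (SD, n = 2 each) and 28.5 ± 1.26 CPM in HFSC (SD, n = 3), with the ORS peak of Cux1. Bmp2 averaged 35.2 ± 4.35 CPM in suprabasal HB, 142 ± 1.65 CPM in basal HB, 11.1 ± 5.91 CPM in ORS and 4.87 ± 0.739 CPM in HFSC, with the basal peak of Prdm1. Kremen1 averaged 267 ± 26.2 CPM in suprabasal HB, 245 ± 0.669 CPM in basal HB, 128 ± 21.4 CPM in ORS and 82.4 ± 4.58 CPM in HFSC. These genes were chosen for their likeness, so the levels are a description.

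Transcript use was followed through the abundance-weighted transcript length of each gene. Ovol1 has 1 transcript and a fixed length, and in 5 of the other 8 factors (Gata3, Cux1, Trps1, Runx1 and Runx2) all 3 HFSC libraries lay below the other 6. Among 12199 tested genes whose length varies, 26.0% did so and 8.74% lay above. Cux1 had lengths of 4403 and 4090 bases in suprabasal HB, 4636 and 4418 bases in basal HB, 4557 and 4766 bases in ORS, and 3816, 3516 and 3837 bases in HFSC. Prdm1 had 4961 and 5011 bases in suprabasal HB and 4857, 5210 and 5219 bases in HFSC, which overlapped. The HFSC libraries were also the shallowest, and population and depth cannot be told apart here.

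**Figure D5:**
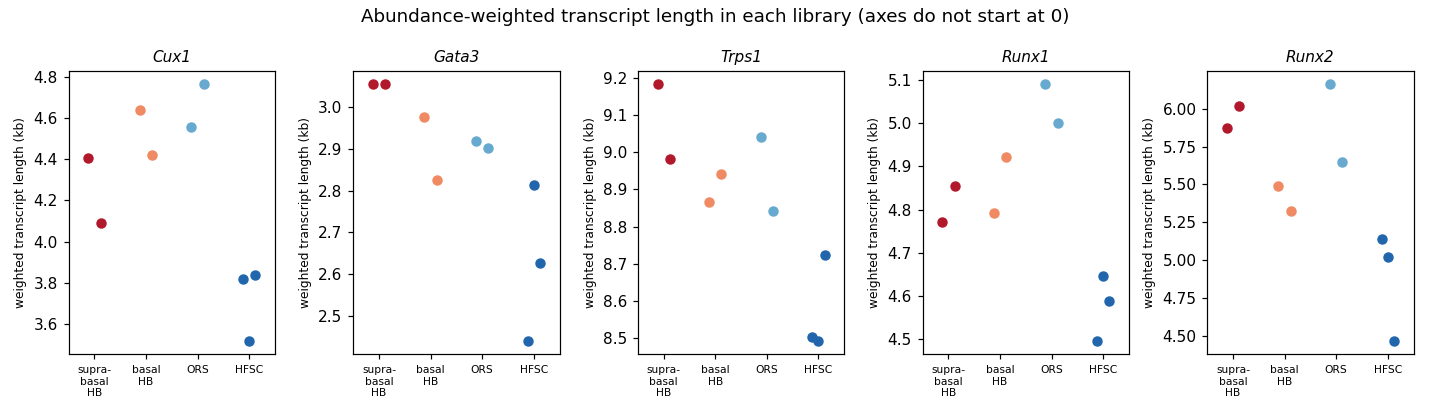
Abundance-weighted transcript length in kb (vertical axes, which do not start at 0) of Cux1, Gata3, Trps1, Runx1 and Runx2, 1 point per library, populations from suprabasal HB to HFSC. The 3 HFSC points lie below the other 6 in every panel, for Cux1 at 3516 to 3837 bases.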

How the data were processed

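RNA sequencing libraries of 9 samples were grouped into 4 populations by their titles. Each sample's deposited table holds RSEM expected counts (reads estimated per gene, with no scaling for depth) and the deposited TPM values, scaled by the authors for length and library. The deposited transcript length is in bases. Bowtie2 2.2.9, RSEM 1.2.30 and mm10 come from the submitters' processing notes, and counting strand and parameters are not given in the sources used here. Deposited FPKM (9 columns) and a series TPM table (9 columns, of which some are not named for any sample) were not used. All 92 spike-in rows are at 0.

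Expected counts, rounded to whole numbers, entered edgeR 4.0.16 under R 4.3.3 (filterByExpr, 20491 genes; TMM; 1 quasi-likelihood fit of 4 means, 5 residual degrees of freedom). Comparisons were 2-sided F-tests, adjusted by Benjamini and Hochberg over all genes tested, threshold 0.05, and the fit was tested on simulated counts. SE was taken as |log2 change| over √F. For these reads without molecular identifiers, SE rests on the spread between libraries as the fit estimates it, not on counting error alone. Alternatives used DESeq2 1.42.0, limma 3.58.1 on log2(TPM + 1) or log2(TPM + 0.1), other scalings and filters, fewer populations, a replicate block, and leaving out each library. A further one, without the 3 HFSC libraries, was chosen after seeing the data.

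All 9 factors are named in every comparison, with, of each related list, at most the 3 genes past the threshold with the largest changes, the 3 nearest genes of each factor by profile, and genes whose exons overlap a factor's. Counts over the list related to Cux1 are not reported here. Other genes named were chosen after their values were seen. The factors and all lists were chosen with earlier results of these data known. Positions are from GENCODE M21, which holds 98.9% of gene rows, and upstream sequences from RefSeq.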

Additional observations from a re-analysis of the deposited data

How the results depend on the processing

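Of 54 tests (9 factors in 6 comparisons) 36 passed, and 24 of those passed under every alternative run (19, or 18 in comparisons with HFSC). None of the 36 changed sign. The number of factors called ranged, on leaving out 1 library, from 2 to 5 in suprabasal over basal HB, 6 to 7 in suprabasal HB over ORS, 5 to 7 over HFSC, 5 to 7 in basal HB over ORS, 5 to 8 over HFSC and 2 to 5 in ORS over HFSC, where DESeq2 called 5. Beside 5, 7, 7, 7, 7 and 3 called without a block, a fit with the replicate block called 4, 6, 5, 7, 7 and 2. The calls it did not make were Runx1 in suprabasal over basal HB (adjusted p = 0.0564), Gata3 in suprabasal HB over ORS (0.0608), Cux1 and Runx2 in suprabasal HB over HFSC (0.154 and 0.0772) and Ovol1 in ORS over HFSC (0.0705). Whether same-numbered libraries were paired is not known. Their deviations correlated at -0.07 to 0.12 over genes, which cannot exclude that they shared animals or a sort.

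Among differences not called, several changed sign. Ovol1 in suprabasal over basal HB was -0.0348 with DESeq2 and with its size factors, -0.0605 with upper-quartile scaling, -0.0112 with no filter, -0.0221 with a stricter one, -0.00199 from the 2 populations alone and -0.26 on log2 TPM (both pseudocounts), and -0.0418 to 0.0308 on leaving out 1 library. Trps1 in that comparison was -0.14 on log2 TPM. In ORS over HFSC, Runx2 was 0.00817 with no filter, 0.000426 from the 2 populations and 0.0213 and 0.0320 on log2 TPM, Trp63 0.0705 and 0.0708 on log2 TPM, and Runx1 -0.0349 with the replicate block. Leaving out 1 library gave there -0.21 to 0.24 for Runx2, -0.29 to 0.34 for Runx1, -0.0364 to 1.26 for Prdm1 and -0.40 to 1.96 for Runx3. Gata3 in suprabasal HB over HFSC ranged from -0.93 to 0.0365. The cause was not tested.

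Counts of all genes called were lower by over 1.5 times without basal HB replicate 1 (2729 against 5721 in suprabasal over basal HB, 3425 against 6245 in basal HB over ORS, 6422 against 10026 over HFSC) or replicate 2 (3043 against 5721 and 4043 against 6245), without suprabasal HB replicate 2 (3539 against 5721) and without ORS replicate 2 (3823 against 6021 in suprabasal HB over ORS). On log2 TPM (pseudocount 1) the share of calls that were higher was 20.5% against 46.8% in suprabasal over basal HB, 31.3% against 48.6% in suprabasal HB over ORS, 72.5% against 46.7% in basal HB over HFSC and 68.5% against 43.2% in ORS over HFSC, and the median of all genes moved to -0.16, -0.13, 0.21 and 0.13. Depth limits Runx3 in HFSC, where counts were lowest.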
